A study of Mus musculus with 6 samples.

Results

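The genes described here encode the proteins of the mitochondrial ribosome. They were read in cells sorted from a transplanted mouse heart as macrophages that had entered it, and markers of other cells were also read. The genes taken were those whose symbol starts with Mrpl or Mrps followed by a number and which lay on probe sets of a single gene. The brightest such probe set, by the mean of all arrays, stood for each gene. This gave 71 of the 22180 genes compared. The rule used symbols and brightness, not the difference between groups. A further 7 such genes, Mrpl30, Mrpl33, Mrpl41, Mrpl43, Mrpl44, Mrpl53 and Mrps6, lay only on probe sets shared with other genes and have no value here. BALB/c hearts had been placed in C57BL/6 mice, the strain that the labels give for every sample. The 3 samples of the mTORi-HDL group came from recipients given 5 mg/kg of mTORi-HDL on days 0, 2 and 5, and the 3 untreated samples from recipients that rejected the graft. mTORi-HDL is a nanoparticle of high-density lipoprotein that carries an inhibitor of the kinase mTOR. No group received the lipoprotein alone, so particle and inhibitor cannot be told apart. Cells were sorted on day 6, and 15 ng of RNA was amplified for 1 array per sample. The sources used here give no ages or sort markers and do not say whether a sample is 1 recipient or a pool, so p-values measure only the spread between these samples, which may be technical.

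The mitochondrial ribosome translates the few messenger RNAs of the mitochondrial genome, which encode core subunits of the respiratory chain and of ATP synthase. All its proteins are encoded in the nucleus, made in the cytosol and imported. Many descend from bacterial ribosomal proteins, and many others have no bacterial counterpart. Signalling through mTOR complex 1 is known to raise production of mitochondrial proteins, partly at the level of translation, which arrays of messenger RNA do not measure. In macrophages, respiration is known from resting and alternatively activated states, and glycolysis from inflammatory ones.

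The array named mTORi-HDL 1 stood apart. Its values had an SD of 1.68 over all probe sets, against 2.04 to 2.09 on the other 5 arrays. Its correlations with those arrays were 0.708 to 0.741, where they correlated with each other at 0.892 to 0.912. Results below are therefore given over all 6 arrays and without it.

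Nuclear genes for mitochondria are known for promoters that bind NRF1, ETS factors such as GABP, and YY1. A RefSeq table of build GRCm38.p6 held 68 promoters for 62 of the 71 genes, each from 250 bases before the transcription start to 50 after it. Of these, 16.2% contained the palindromic NRF1 motif, against 4.60% of all 32851 promoters of that length. The ETS motif CCGGAAG was in 33.8% against 8.86%, and the YY1 motif AANATGGC in 30.9% against 6.05%. The E-box CACGTG, which MYC binds, was in 10.3% against 7.15%. These were 7 of the 68 promoters but 5 of the 62 genes, because Mrpl2 was counted with several overlapping promoters. Both strands were searched and motifs could overlap. At least 1 of NRF1, ETS and YY1 was in 61.8% of the members' promoters and 17.4% of all. Cytosolic ribosomal protein promoters, 57 in the table, held the ETS motif in 36.8%, the NRF1 motif in 7.02% and the YY1 motif in 14.0%. Some members had an unadjusted p below 0.05 in limma both over all 6 arrays and without mTORi-HDL 1. Of these, Mrps31, which read lower, held none of the motifs searched and is not shown. The promoters of the other 4 are shown: Mrps23, Mrpl50 and Mrpl12, which read lower in mTORi-HDL, and Mrpl45, which read higher. Each runs from 250 bases before the start to 30 after it, 5′ to 3′ on the gene's strand, with NRF1, ETS and YY1 matches in capitals.
Mrps23, chr11:88204138-88204417, plus strand: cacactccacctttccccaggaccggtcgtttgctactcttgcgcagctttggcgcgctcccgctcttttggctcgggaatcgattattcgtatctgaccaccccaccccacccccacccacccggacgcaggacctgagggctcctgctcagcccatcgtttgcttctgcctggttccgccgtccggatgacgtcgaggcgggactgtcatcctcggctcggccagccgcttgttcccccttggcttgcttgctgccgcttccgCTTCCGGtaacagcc
Mrpl50, chr4:49521054-49521333, minus strand: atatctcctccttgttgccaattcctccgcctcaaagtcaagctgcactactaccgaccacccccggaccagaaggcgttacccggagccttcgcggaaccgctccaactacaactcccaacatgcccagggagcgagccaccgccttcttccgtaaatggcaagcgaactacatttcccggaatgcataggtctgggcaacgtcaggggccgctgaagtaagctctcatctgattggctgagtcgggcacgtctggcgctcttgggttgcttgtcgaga
Mrpl12, chr11:120484387-120484666, plus strand: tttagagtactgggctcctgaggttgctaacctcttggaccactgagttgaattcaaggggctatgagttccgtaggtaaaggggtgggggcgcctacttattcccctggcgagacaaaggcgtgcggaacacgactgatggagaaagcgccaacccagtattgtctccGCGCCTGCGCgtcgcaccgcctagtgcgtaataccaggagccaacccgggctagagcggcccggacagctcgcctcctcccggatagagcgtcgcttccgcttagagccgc
Mrpl45, chr11:97315466-97315745, plus strand: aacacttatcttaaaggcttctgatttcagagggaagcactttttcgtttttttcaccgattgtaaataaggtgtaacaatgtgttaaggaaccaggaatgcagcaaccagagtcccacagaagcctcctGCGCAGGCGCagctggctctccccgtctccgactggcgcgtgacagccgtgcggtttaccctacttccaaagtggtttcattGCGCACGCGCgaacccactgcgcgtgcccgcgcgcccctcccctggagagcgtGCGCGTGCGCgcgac
Mrpl45 had 3 NRF1 matches (GCGCAGGCGC, GCGCACGCGC and GCGCGTGCGC), Mrpl12 had 1 (GCGCCTGCGC), Mrps23 had 1 ETS match on the opposite strand just after the start, and Mrpl50 had none of the 3 motifs in these bases. A match describes the letters and does not show binding.

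Most mitochondrial ribosomal protein genes had lower values in the mTORi-HDL group, by a small amount for most and by more for a few. On all 6 arrays 54 of 71 (76.1%) had a log2 fold change (mTORi-HDL minus untreated) below 0, against 41.8% of all genes, and their median was -0.39, against 0.08 for all genes. Without mTORi-HDL 1 the count was 48 of 71 (67.6%), against 53.4% of all genes, with a median of -0.25 against -0.03. Of the 71, 68 lay among the 11090 genes above median brightness, which as a whole read lower than all genes: on all 6 arrays 58.4% of them were below 0 with a median of -0.12, against 52 of the 68 members with a median of -0.40. Without mTORi-HDL 1 these were 52.8% and -0.03, against 46 of 68 and -0.24. With p-values adjusted over all genes in limma, none of the 71 was under 0.05, and 0.0% of all genes were, in both comparisons. The smallest adjusted p among them was 0.696 on all 6 arrays and 0.313 without mTORi-HDL 1, both for Mrps23. With a raw (unadjusted) p below 0.05, 5 of 71 (7.04%) were lower on all 6 arrays, against 3.07% of all genes, and 2 were higher, against 1.57%. Without mTORi-HDL 1 these counts were 7 (9.86%) against 3.51% and 1 against 3.47%. The counts also moved with other arrays. Leaving out mTORi-HDL 2 gave 12 lower, against 4.46% of all genes, and 0 higher, against 2.28%. Leaving out untreated 1 gave 3 lower, against 2.2%, and 0 higher, against 0.978%. The higher count was also 0 without mTORi-HDL 3, against 2.02%, and without untreated 3, against 0.839%. Between all 6 arrays and those without mTORi-HDL 1, 4 lower genes were in both counts, and Mrpl45 was in both counts of higher genes. Without mTORi-HDL 1 the groups did not overlap for 14 of 71 (19.7%) in the lower direction, against 12.5% of all genes, and for 3 in the higher, against 9.75%. On all 6 arrays these counts were 6 (8.45%), against 5.53%, and 2, against 5.37%. The size of the shift and the count of lower genes depend on the normalization: cyclic loess over all 6 arrays moved the median to -0.08 and quantile normalization to -0.12. After cyclic loess 40 of 71 were below 0, against 48.7% of all genes. After quantile normalization 42 were, against 45.8%.

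The 3 treated arrays did not shift alike. On mTORi-HDL 1 the members lay at a median of -0.60 from the untreated mean, on mTORi-HDL 2 at -0.07 and on mTORi-HDL 3 at -0.31. The medians of the 3 untreated arrays lay between -0.04 and 0.05. On mTORi-HDL 1, 44 of 71 members (62.0%) were below all 3 untreated arrays, against 27.3% of all genes, and 14 (19.7%) were above all of them, against 49.8%. On mTORi-HDL 2, 26 (36.6%) were below, against 27.6%, and 17 (23.9%) above, against 23.5%. On mTORi-HDL 3, 35 (49.3%) were below, against 26.8%, and 6 (8.45%) above, against 22.4%. All 3 treated arrays thus had a larger share of members low than of genes at large, by least on mTORi-HDL 2. On that array the share of high members was near that of all genes. The members were also brighter, with mean log2 levels of 6.28 to 6.50 on untreated arrays, against 4.49 to 4.52 for all genes. Shares among genes of like brightness were not counted for single arrays. Of cytosolic ribosomal protein genes, which read brighter still, 50.8%, 9.52% and 22.2% were below all untreated arrays on mTORi-HDL 1, 2 and 3. Lower than the untreated mean on both mTORi-HDL 2 and 3 were 34 of the 71 members (47.9%), against 34.8% of all genes. On mTORi-HDL 1, 2 and 3 the members' differences from the untreated mean had an SD of 1.10, 0.67 and 0.56. Over all genes the SD was 1.21, 0.55 and 0.54. A difference of over 1 on the log2 scale below the untreated mean was read for 27 members on mTORi-HDL 1, 5 on mTORi-HDL 2 and 6 on mTORi-HDL 3. The share of all genes past that limit was not counted. Farthest of the members was Mrpl32, a large-subunit protein, which read 2.37 on mTORi-HDL 1. It read 7.17 and 5.70 on mTORi-HDL 2 and 3, and 6.88, 6.57 and 6.78 in untreated samples.

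**Figure D1:**
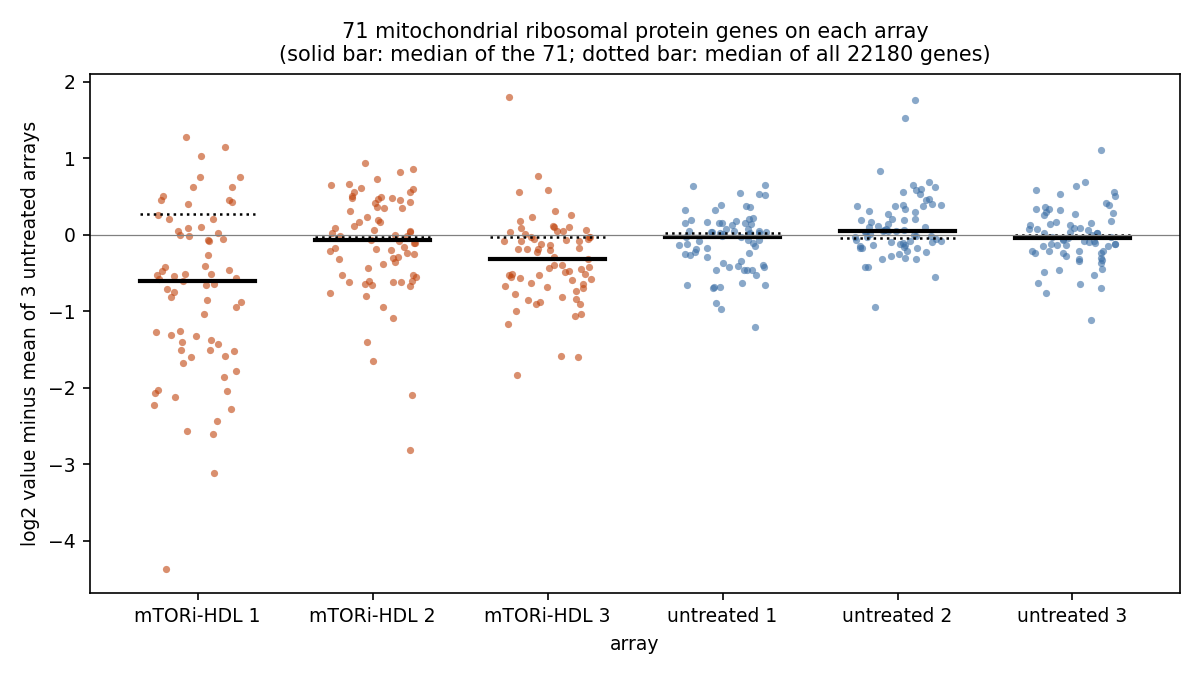
Each point is 1 of the 71 genes, plotted as its log2 value minus the mean of the 3 untreated arrays, for each of the 6 arrays. Solid bars are medians of the 71 genes and dotted bars medians of all 22180 genes: the members' median lies at -0.60, -0.07 and -0.31 on the treated arrays, and mTORi-HDL 1 has the widest scatter.

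Of the small subunit, which decodes the messenger RNA, 25 proteins were measured. Their median log2 fold change was -0.40 on all 6 arrays and -0.29 without mTORi-HDL 1, and 22 and 19 of 25 were below 0. The mean log2 level of the 25 was 5.64, 6.02 and 5.84 on the treated arrays and 6.12, 6.43 and 6.31 on the untreated ones, so the groups did not overlap. The nearest arrays were mTORi-HDL 2 and untreated 1. Mrps23 read 3.39 and 5.57 on these and made most of the gap between their means. On all 6 arrays 2 of the 25 were lower with a raw p below 0.05, against 3.07% of all genes, and 1 was higher, against 1.57%. Without mTORi-HDL 1, 3 of the 25 were lower, against 3.51%, namely Mrps23, Mrps18c and Mrps31, and 0 higher, against 3.47%.

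Mrps23 had the largest difference of the 71 genes in both comparisons. It encodes a small-subunit protein without a bacterial counterpart. Its log2 values were 4.69, 3.39 and 4.61 on the treated arrays 1 to 3 and 5.57, 6.67 and 6.37 on the untreated ones. All treated arrays lay below all untreated arrays, and mTORi-HDL 2 was the lowest. The log2 fold change was -1.97 ± 0.46 (SE, n = 3 each; limma, adjusted p = 0.696), and -2.20 ± 0.46 without mTORi-HDL 1 (adjusted p = 0.313), which is 4.61-fold lower.

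Mrps31, another small-subunit protein specific to mitochondria, read 3.65, 4.22 and 4.32 on the treated arrays and 5.70, 5.00 and 4.80 on the untreated ones. The groups did not overlap. Mrps31 had a log2 fold change of -1.10 ± 0.35 (SE; limma, adjusted p = 0.890) and -0.89 ± 0.31 without mTORi-HDL 1 (adjusted p = 0.599).

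Mitochondria hold 3 relatives of the bacterial protein S18, and they did not read alike. Mrps18c occupies the bacterial position in the small subunit. It read 7.62 on mTORi-HDL 1, above every other array, but 5.67 and 5.31 on mTORi-HDL 2 and 3, below the untreated values of 6.49, 6.31 and 6.62. Its log2 fold change was -0.27 ± 0.58 (SE) on all 6 arrays and -0.98 ± 0.23 without mTORi-HDL 1 (limma, adjusted p = 0.930 and 0.400), and it turned upward on all 6 arrays under quantile normalization (0.18) and cyclic loess (0.22). A second, dimmer probe set of Mrps18c had 0.14 without mTORi-HDL 1. Mrps18b, also of the small subunit, had -0.13 ± 0.34 (SE) on all 6 arrays and 0.17 ± 0.23 without mTORi-HDL 1, with a 95% interval of -0.37 to 0.72 in the latter. Its second probe set had -0.79 there, so its probe sets disagreed. Mrps18a, which sits in the large subunit, had -0.70 ± 0.36 and -0.37 ± 0.25.

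Among other small-subunit genes, Mrps12 and Mrps5 encode bacterial-type proteins near the site of decoding. Mrps12 read 5.95, 5.86 and 5.88 in treated and 5.89, 5.62 and 5.58 in untreated samples. The groups overlapped, and the 95% interval of the difference without mTORi-HDL 1 ran from -0.35 to 0.70. Mrps5 had a log2 fold change of -0.62 ± 0.52 on all 6 arrays and of -0.10 ± 0.36 (SE) without mTORi-HDL 1. The interval of the latter ran from -0.96 to 0.77. A second, dimmer probe set of Mrps5 had the opposite sign, with 0.48 on all 6 arrays and 0.17 without mTORi-HDL 1. Mrps14, picked out after its values were seen, read 4.14 on mTORi-HDL 1, within the untreated range, and 2.69 and 2.25 on mTORi-HDL 2 and 3. Mrps14 had a log2 fold change of -1.06 ± 0.81 (SE) on all 6 arrays and -1.62 ± 0.81 without mTORi-HDL 1, and its untreated values of 3.43, 5.86 and 2.98 spread over more than either difference.

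The opposite direction was seen in the small subunit for Mrps33. Mrps33, specific to mitochondria, read 8.91, 8.24 and 8.19 in treated and 7.78, 7.96 and 7.14 in untreated samples. The groups did not overlap. The log2 fold change was 0.82 ± 0.34 (SE; limma, adjusted p = 0.890) and 0.59 ± 0.30 without mTORi-HDL 1 (adjusted p = 0.780).

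**Figure D2:**
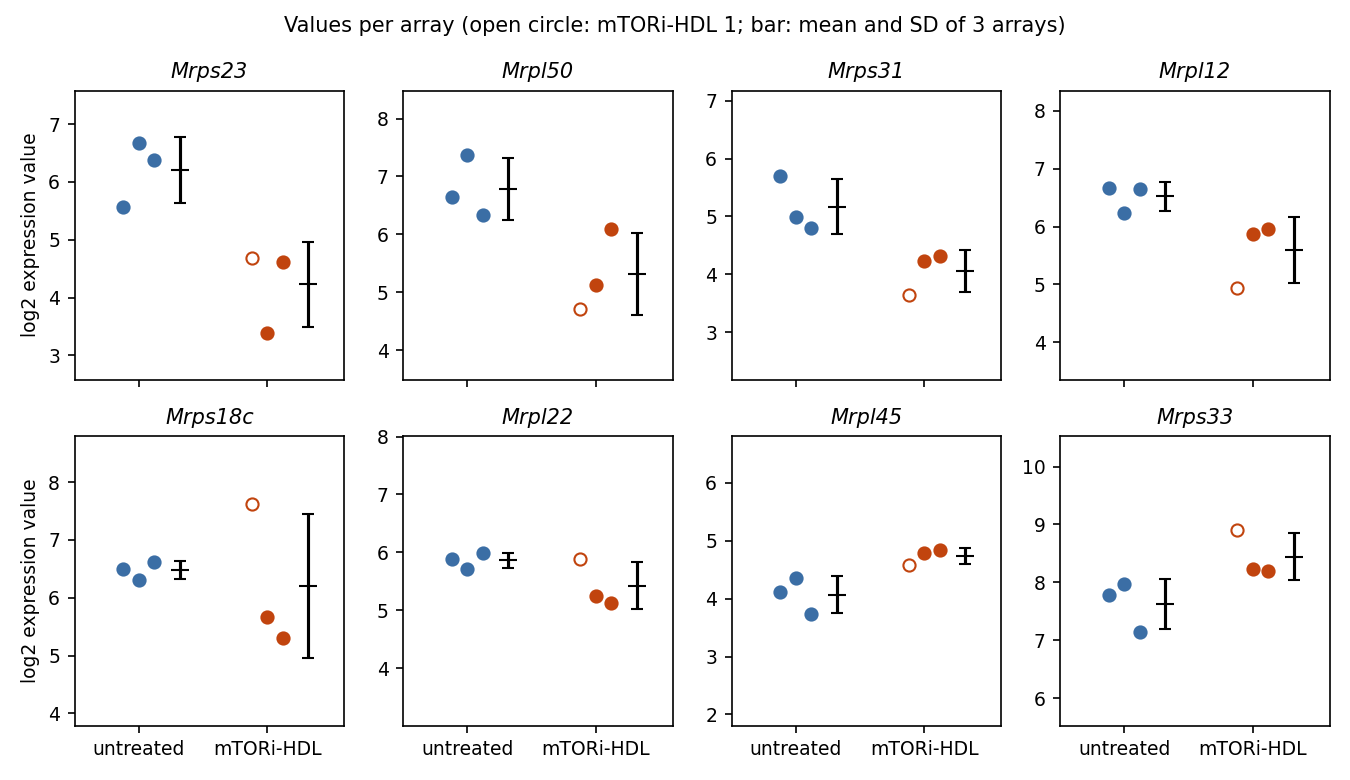
Log2 values of 8 members on each array, untreated left and mTORi-HDL right; points are arrays, the open circle is mTORi-HDL 1, and bars give mean and SD of 3 arrays. Treated points lie below untreated ones for Mrps23, Mrpl50, Mrps31 and Mrpl12 and above them for Mrpl45 and Mrps33, while for Mrps18c and Mrpl22 the open circle lies apart from the other treated arrays.

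Of the large subunit, which forms peptide bonds, 45 proteins were measured. Their median log2 fold change was -0.39 on all 6 arrays and -0.22 without mTORi-HDL 1, and 31 and 28 of 45 were below 0. Their mean log2 level was 5.64, 6.44 and 6.21 on the treated and 6.43, 6.60 and 6.42 on the untreated arrays, so the groups overlapped. No difference between the subunits was tested. Mrps30 and Mrps18a are counted here, since their proteins sit in the large subunit despite their names.

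Mrpl50, specific to mitochondria, read 4.70, 5.13 and 6.09 in treated and 6.64, 7.37 and 6.32 in untreated samples. The groups did not overlap, though mTORi-HDL 3 came close to the lowest untreated array. The log2 fold change was -1.47 ± 0.44 (SE; limma, adjusted p = 0.890), and -1.17 ± 0.41 without mTORi-HDL 1 (adjusted p = 0.611), which is 2.25-fold lower. Together with Mrps23 it had a raw p below 0.05 in each of the 18 settings run, and these settings share their arrays.

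Mrpl12, Mrpl11 and Mrpl10 form the stalk region that receives translation factors, and Mrpl12 is also known to bind the mitochondrial RNA polymerase. Mrpl12 read 4.94, 5.87 and 5.97 in treated and 6.67, 6.24 and 6.65 in untreated samples. The groups did not overlap, with mTORi-HDL 1 the lowest. For this gene the log2 fold change was -0.93 ± 0.35 (SE; limma, adjusted p = 0.890) and -0.60 ± 0.24 without mTORi-HDL 1 (adjusted p = 0.686). The second probe set of Mrpl12 gave -0.86 and -0.59, close to the first. Mrpl11 had -0.70 ± 0.38 and -0.42 ± 0.32, and its groups overlapped. Mrpl10, picked after its values were seen, had -0.26 ± 0.29 and -0.35 ± 0.27, and its second probe set had 0.49 and 0.01.

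Mrpl22, which lines the exit tunnel for the new peptide, read 5.89 on mTORi-HDL 1, within the untreated range, and 5.25 and 5.13 on mTORi-HDL 2 and 3, below the untreated values of 5.88, 5.72 and 5.98. Without mTORi-HDL 1 its log2 fold change was -0.67 ± 0.21 (SE; limma, adjusted p = 0.547) and on all 6 arrays -0.44 ± 0.30. Mrpl45 holds the ribosome to the inner membrane, where its products are inserted. It read 4.58, 4.80 and 4.84 in treated and 4.12, 4.36 and 3.73 in untreated samples, with no overlap and little spread among treated arrays. The log2 fold change of Mrpl45 was 0.67 ± 0.28 (SE; limma, adjusted p = 0.890) and 0.75 ± 0.26 without mTORi-HDL 1 (adjusted p = 0.595). Mrpl17, a protein near the tunnel exit, read 5.97, 6.53 and 7.85 in treated and 5.37, 6.08 and 6.68 in untreated samples. Its groups overlapped. The log2 fold change of Mrpl17 was 0.74 ± 0.55 (SE) on all 6 arrays, 1.15 without mTORi-HDL 1 (95% interval -0.06 to 2.35), 0.21 without mTORi-HDL 3 and 0.40 without untreated 1.

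Mrpl20, a protein of early assembly, read 6.97 on mTORi-HDL 1, above every other array, and 5.33 and 5.27 on mTORi-HDL 2 and 3, below the untreated values of 5.67, 6.32 and 5.82. Its log2 fold change was -0.08 ± 0.49 (SE) on all 6 arrays and -0.64 ± 0.26 without mTORi-HDL 1 (limma, adjusted p = 0.979 and 0.708). Mrpl2, which lies at the peptidyl transferase centre, read 5.53, 5.73 and 5.19 in treated and 6.42, 6.00 and 5.86 in untreated samples, with no overlap, and had a log2 fold change of -0.61 ± 0.29 (SE). Both Mrpl20 and Mrpl2 were picked after their values were seen. Mrpl54, specific to mitochondria, read 6.84, 6.79 and 8.36 in treated and 8.19, 9.71 and 8.74 in untreated samples, so that only mTORi-HDL 3 reached the untreated range. Its log2 fold change was -1.55 ± 0.55 (SE; limma, adjusted p = 0.890) and -1.30 ± 0.58 without mTORi-HDL 1. Mrpl55, the counterpart of bacterial L31, had -0.76 ± 0.34 and -0.72 ± 0.35. Mrpl58, a hydrolase that frees peptides from stalled ribosomes, had -0.58 ± 0.49 and -0.17 ± 0.42. The 95% interval of the latter ran from -1.17 to 0.84, and cyclic loess on all 6 arrays turned the sign (0.04).

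Without mTORi-HDL 1, 17 of the 45 large-subunit genes had a log2 fold change above 0, from 0.01 for Mrpl48 to 1.15 for Mrpl17, and none passed the adjusted test. Mrps30 read 4.19 on mTORi-HDL 1 and 6.00 and 5.24 on mTORi-HDL 2 and 3, against 5.15, 5.10 and 5.16 in untreated samples. Its log2 fold change was 0.00 ± 0.45 (SE) on all 6 arrays and 0.48 ± 0.28 without mTORi-HDL 1 (limma, adjusted p = 0.834), and it was below 0 on all 6 arrays after median centring (-0.07) and quantile normalization (-0.09). Mrpl19, Mrpl15, Mrpl14, Mrpl37, Mrpl1 and Mrpl38 had 0.46, 0.43, 0.31, 0.29, 0.28 and 0.13 without mTORi-HDL 1, and their groups overlapped; on all 6 arrays Mrpl15 had -0.58 and Mrpl1 -0.25, and median centring put Mrpl19 at -0.03 and Mrpl14 just below 0.

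**Figure D3:**
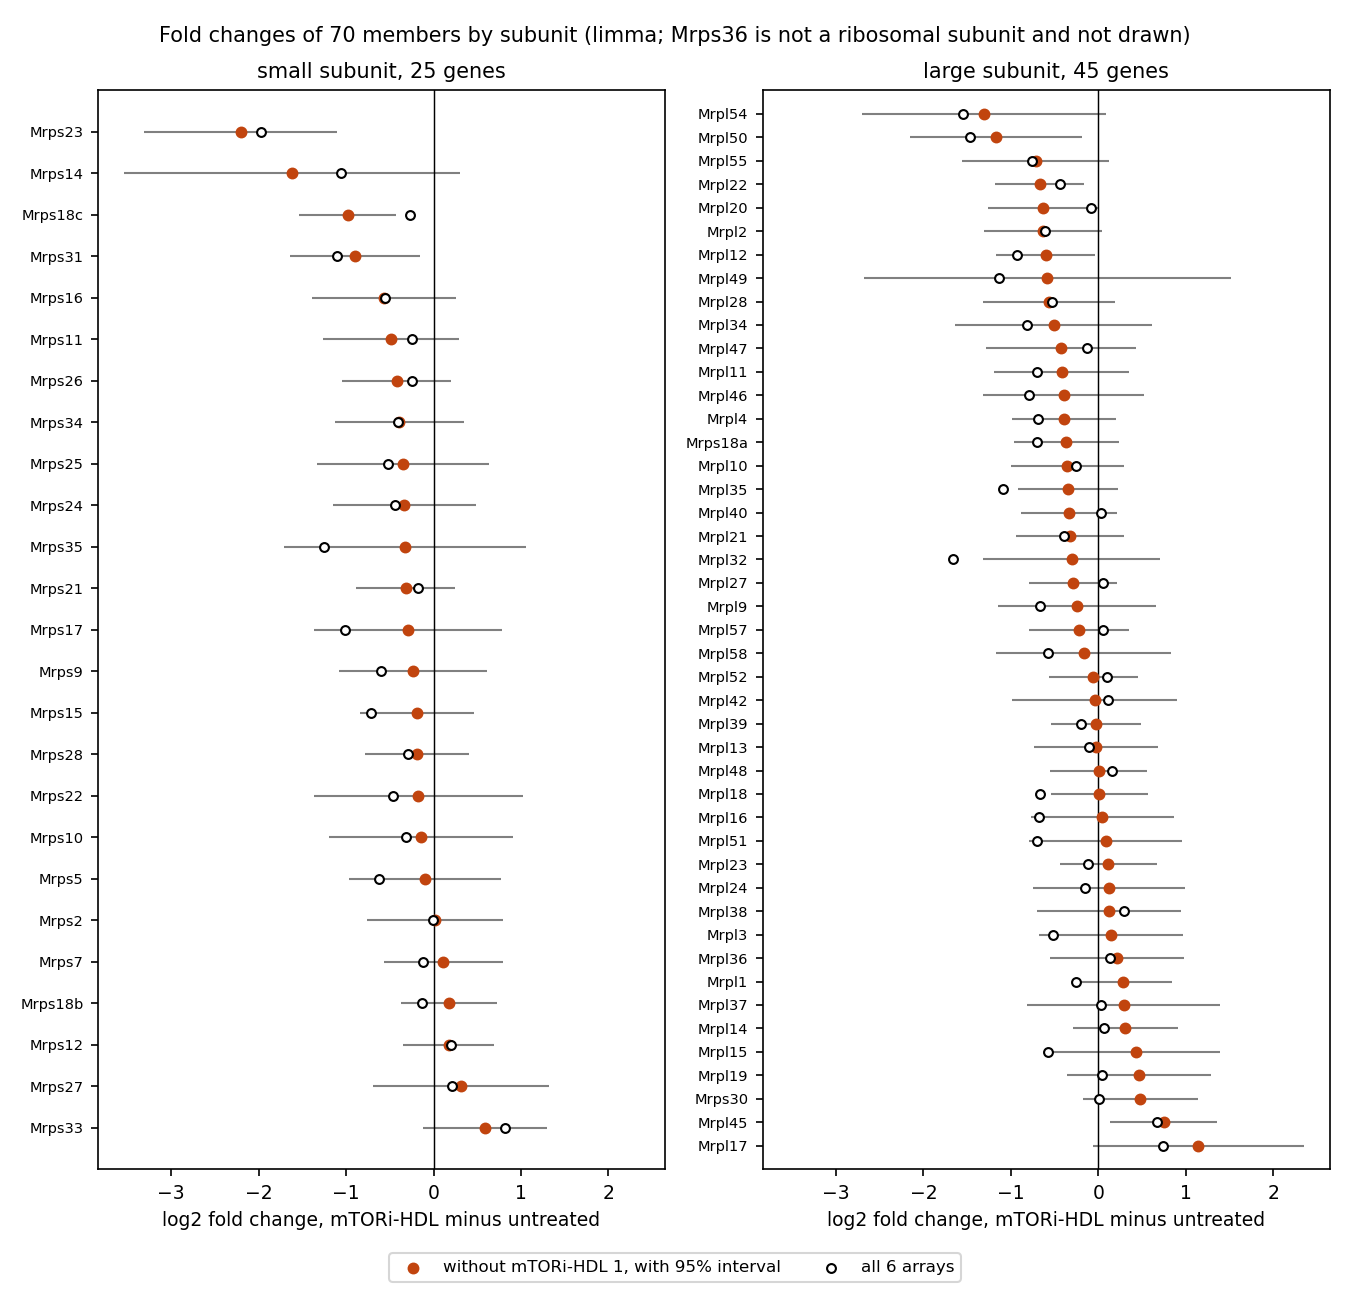
Log2 fold changes (mTORi-HDL minus untreated) of 25 small-subunit and 45 large-subunit genes, as filled points with 95% intervals without mTORi-HDL 1 and as open points over all 6 arrays. The intervals of most genes include 0, and Mrps23 lies lowest at -2.20.

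The subunit proteins were also split by descent. The 43 with bacterial homologues had a median log2 fold change of -0.44 on all 6 arrays and -0.29 without mTORi-HDL 1, and 37 and 29 were below 0. The 27 specific to mitochondria had -0.25 and -0.17, with 16 and 18 below 0. Split by subunit too, the medians without mTORi-HDL 1 were -0.23 and -0.33 for small-subunit genes of bacterial and mitochondrial type and -0.30 and -0.06 for large-subunit ones. No difference between these classes was tested. Mrps36 is kept in the 71 by its symbol, although its protein is now placed in the oxoglutarate dehydrogenase complex. It had a log2 fold change of -0.18 ± 0.36 (SE). By promoter, medians are given on all 6 arrays and then without mTORi-HDL 1. The 23 members with an ETS motif had -0.27 and -0.17, against -0.44 and -0.31 for 39 without it. The 11 with an NRF1 motif had -0.20 and -0.23, against -0.44 and -0.29 for 51 without, and the 21 with a YY1 motif -0.25 and -0.17, against -0.44 and -0.29 for 41 without. The 5 with an E-box had -0.08 and -0.63, against -0.44 and -0.25 for 57 without, so their order turned with mTORi-HDL 1. None of these differences was tested.

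The rest of the mitochondrial translation system was read from 6 lists, and differences between lists were not tested. Of 30 measured genes for ribosome assembly and modification of its RNA, the median log2 fold change was 0.03 on all 6 arrays and 0.00 without mTORi-HDL 1. In both comparisons 2 of the 30 (6.67%) were lower with a raw p below 0.05, none was higher, and none passed over all genes. Of all genes, 3.07% were lower and 1.57% higher at that level on all 6 arrays. Without mTORi-HDL 1 these shares were 3.51% and 3.47%. On all 6 arrays 14 of the 30 were below 0, and 15 without mTORi-HDL 1. Those with a raw p below 0.05 were Trmt2b and Tfb1m. Trmt2b, which methylates mitochondrial transfer and ribosomal RNA, read 3.80, 3.74 and 4.80 in treated and 6.40, 5.46 and 5.74 in untreated samples, with no overlap. The log2 fold change of Trmt2b was -1.75 ± 0.40 (SE; limma, adjusted p = 0.696) and -1.60 ± 0.41 without mTORi-HDL 1 (adjusted p = 0.421). Tfb1m, which dimethylates the small-subunit RNA, read 4.96, 4.97 and 3.92 in treated and 5.15, 5.60 and 5.75 in untreated samples, again with no overlap. Its log2 fold change was -0.89 ± 0.37 and -1.06 ± 0.36 without mTORi-HDL 1.

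The 15 measured translation factors had medians of -0.29 on all 6 arrays and -0.15 without mTORi-HDL 1, and 11 and 10 were below 0. Of these 15, 1 (6.67%) was lower with a raw p below 0.05 on all 6 arrays, against 3.07% of all genes. Without mTORi-HDL 1, 2 (13.3%) were lower, against 3.51%. None was higher, against 1.57% and 3.47%, and none passed. Taco1, an activator of cytochrome oxidase synthesis, read 4.03, 4.64 and 3.90 in treated and 5.08, 5.18 and 4.98 in untreated samples, without overlap. Its log2 fold change of -0.89 ± 0.29 (SE; limma, adjusted p = 0.890) was -0.80 ± 0.28 without mTORi-HDL 1, and -0.03 on all 6 arrays where the probe sets of a gene were averaged. Tufm, the elongation factor that brings transfer RNA, had -0.32 ± 0.29 and -0.52 ± 0.22 without mTORi-HDL 1, and turned upward on all 6 arrays under quantile normalization (0.13) and cyclic loess (0.06). Oxa1l, which inserts the new proteins into the membrane, had 0.68 ± 0.33 and 0.55 ± 0.32. The 19 mitochondrial aminoacyl-tRNA synthetases had medians of -0.01 and 0.02, and 10 and 8 were below 0. Of these 19, none was higher with a raw p below 0.05, against 1.57% and 3.47% of all genes. In both comparisons 1 (5.26%) was lower at that level, against 3.07% and 3.51%. This was Cars2, the cysteine enzyme, at -0.68 ± 0.27 and -0.61 ± 0.25. Yars2, the tyrosine enzyme, had -1.27 ± 0.57 and -0.64 ± 0.34.

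The 3 measured subunits of the ribosome with other symbols had medians of -0.52 on all 6 arrays and -0.19 without mTORi-HDL 1. All 3 were below 0 in both comparisons, and none had a raw p below 0.05. Dap3 and Ptcd3 of the small subunit had -0.33 ± 0.31 and -0.88 ± 0.59 (SE) on all 6 arrays and -0.10 and -0.19 without mTORi-HDL 1. Gadd45gip1 of the large subunit had -0.52 ± 0.31 and -0.36 ± 0.28. The 16 genes for transcription and RNA processing in mitochondria had medians of -0.30 and -0.12, and 13 and 9 were below 0. Without mTORi-HDL 1, none of these 16 was lower with a raw p below 0.05, against 3.51% of all genes. In that comparison 1 was higher at that level, against 3.47%. This was Tefm, an elongation factor of the mitochondrial polymerase. It read 4.27, 4.31 and 6.34 in treated and 4.05, 4.01 and 3.54 in untreated samples, so the value rests mainly on mTORi-HDL 3. Without that array its log2 fold change over the remaining 5 was 0.42. Ssbp1, which coats single-stranded mitochondrial DNA, had 1.08 ± 0.53 and 0.63 ± 0.44. Polrmt, the polymerase, had -0.39 ± 0.41 and 0.04 ± 0.24, and Tfam, the packaging and transcription factor of mitochondrial DNA, -0.76 ± 0.41 and -0.58 ± 0.42. The 12 upstream regulators had medians of -0.09 and 0.22, with 7 and 2 below 0, and none had a raw p below 0.05. Nrf1 read 4.82, 5.88 and 5.82 in treated and 5.68, 5.80 and 5.85 in untreated samples, so only mTORi-HDL 1 was low, and its log2 fold change was -0.27 ± 0.35 and 0.08 ± 0.21. The coactivator Ppargc1b had 0.66 ± 0.29 and 0.53 ± 0.26. Yy1 had -0.35 ± 0.24 and -0.37 ± 0.21, and turned upward on all 6 arrays under quantile normalization (0.03) and cyclic loess (0.26).

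Cytosolic ribosomal proteins and the nuclear genes of the respiratory chain are given beside the mitochondrial ribosomal proteins. The 63 cytosolic ribosomal protein genes had a median log2 fold change of -0.02 on all 6 arrays and 0.06 without mTORi-HDL 1, and 33 and 21 of 63 were below 0. The 75 nuclear genes of the respiratory chain and ATP synthase, the machinery that mitochondrial translation completes, had -0.19 and -0.12, nearer 0 than the members' -0.39 and -0.25, with 53 (70.7%) below 0 in both. Their groups did not overlap in the lower direction for 14.7% on all 6 arrays and 24.0% without mTORi-HDL 1. The members had 8.45% and 19.7%, cytosolic genes 4.76% in both, and all genes 5.53% and 12.5%. Without mTORi-HDL 1, 2 cytosolic genes (3.17%) and 4 respiratory genes (5.33%) were lower with a raw p below 0.05, against 3.51% of all genes. None was higher, against 3.47%. On all 6 arrays 2 cytosolic (3.17%) and 2 respiratory genes (2.67%) were lower at that level, against 3.07%. Again none was higher, against 1.57%. Differences between the groups were not tested.

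**Figure D4:**
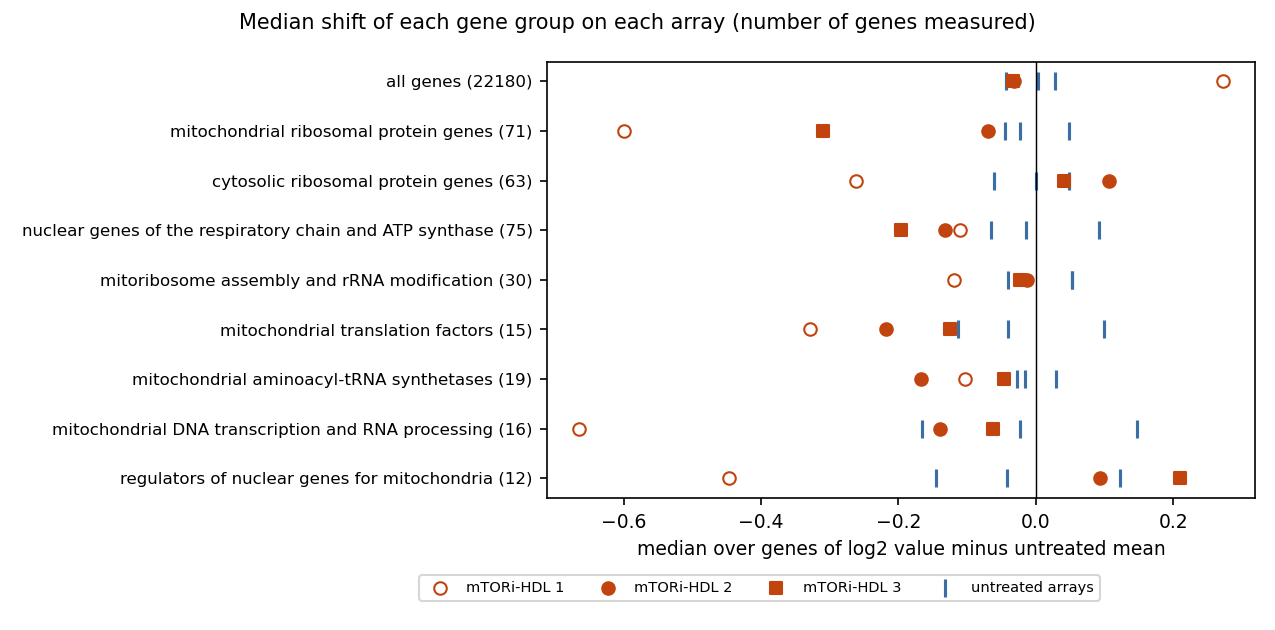
Median over the genes of each group of the log2 value minus the untreated mean, for each treated array (red) and each untreated array (blue ticks), with the number of genes measured. On mTORi-HDL 2 and 3 the 71 mitochondrial ribosomal protein genes lie at -0.07 and -0.31, cytosolic ribosomal protein genes at 0.11 and 0.04, respiratory chain genes at -0.13 and -0.20, and all genes at -0.03 on both.

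Markers of T cells and of dividing cells were lower in the mTORi-HDL group, as most of these genes were. For the counts below, 3.51% of all genes were lower and 3.47% higher with a raw p below 0.05 without mTORi-HDL 1. On all 6 arrays these shares were 3.07% and 1.57%. Of 16 measured T cell markers all were lower without mTORi-HDL 1, 12 of them with a raw p below 0.05, and their mean log2 level was 6.49 to 7.98 in treated and 8.72 to 9.13 in untreated samples. With all 6 arrays these counts were 16 and 11. Of 21 markers of dividing cells all were lower in both comparisons, and the raw p was below 0.05 for 15 without mTORi-HDL 1 and for 17 with it, at mean levels of 5.00 to 5.88 and 7.07 to 7.48. Macrophage markers were present and went the other way, with a raw p below 0.05 for 9 of 16 higher without mTORi-HDL 1 and for 4 with it, at mean levels of 7.78 to 9.38 and 7.67 to 8.29. The remaining counts are without mTORi-HDL 1. Of 16 cardiomyocyte markers 2 were higher at that level, with mean levels of 4.35 to 4.71 and 3.95 to 4.44. Fibroblast and mural cell markers had 5 higher and 1 lower of 12, with 5.38 to 5.80 and 4.82 to 4.94. None of these markers passed limma's test over all genes. NK cell markers had 2 of 9 lower and B cell markers 1 of 7 lower, and neutrophil markers had 1 of 10, dendritic cell markers 3 of 9 and endothelial markers 1 of 9 higher, with 0 of 4 erythroid and platelet markers in either direction. Mean levels of NK cell markers were 7.62 to 8.73 in treated and 8.81 to 9.40 in untreated samples. In untreated samples T cell and NK cell markers thus read above macrophage markers, though each list holds different genes. The part of other cells in the members' values was not tested. In bulk RNA of sorted cells, fewer cells of a kind and less RNA per cell cannot be told apart.

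Across the 18 settings the members' median stayed below 0, from -0.46 after median centring to -0.08 after cyclic loess, while the median of all genes ran from -0.12 to 0.13. Of the 71 genes, 31 were lower in every setting that kept them, and 35 took either sign. Higher in every such setting were 5, namely Mrpl17, Mrpl38, Mrpl45, Mrps12 and Mrps33. The settings share their arrays, and the share of all genes that kept the same sign was not counted. Of 9 members with 2 probe sets, 4 had probe sets with opposite signs without mTORi-HDL 1.

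**Figure D5:**
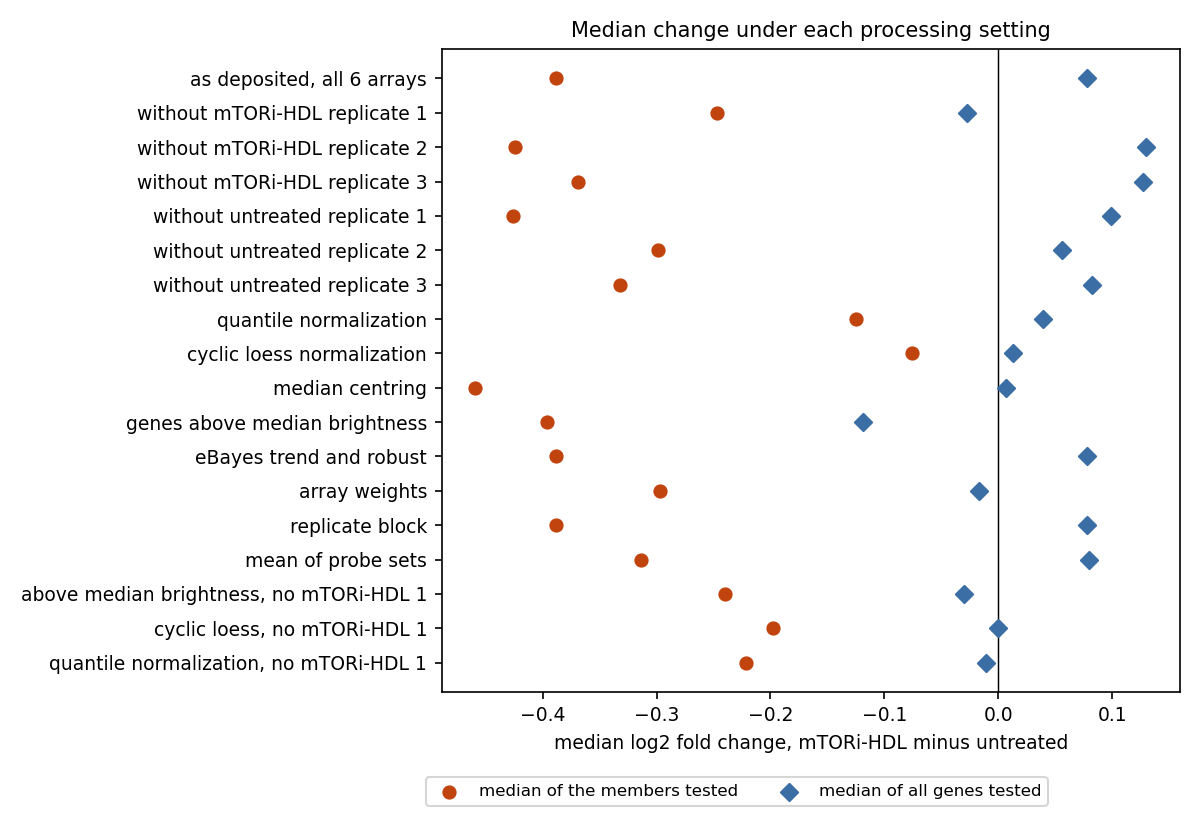
Median log2 fold change of the members (circles) and of all genes tested (diamonds) under each of 18 settings. The members' median lies between -0.46 and -0.08, and it is nearest 0 where cyclic loess or quantile normalization was applied to all 6 arrays.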

How the data were processed

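The authors deposited log2 values for 41345 probe sets on each of 6 arrays, for which the submitters' processing notes name RMA and Affymetrix Expression Console without a version. RMA corrects background, quantile-normalizes and summarises probes. The sources used here give neither a build nor probe-set filters. The table had 0 missing values and 0 identical pairs of arrays. With arrays, precision is limited by their number.

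In the platform annotation 23521 probe sets had 1 symbol, 1814 several and 16010 none. All 71 members were found in RefSeq GRCm38.p6 under the same symbol. The 22180 genes were compared without a filter in limma 3.58.1 under R 4.3.3 (lmFit, eBayes, group as the only term, two-sided, Benjamini-Hochberg over all genes), after a test on simulated data. Replicate numbers were treated as unpaired. The members and lists were chosen with earlier results of these data known. Named genes were the 6 members per direction with the smallest p in each comparison (fewer than 5 passed), a panel, the 2 smallest p of each of 6 pathway lists, and 6 further genes of mitochondrial translation and its regulation. Fold changes are given with the SE of the fitted difference. Alternatives were each array left out, quantile, cyclic loess and median scaling, a brightness filter, trended robust moderation, array weights, a replicate block and averaged probe sets. 3 settings without mTORi-HDL 1 were added after the data were seen.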

Additional observations from a re-analysis of the deposited data

How the results depend on the processing

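No member passed limma's adjusted test in any setting. Over all genes the count of 0 (1029 at an unadjusted p under 0.05) held in every setting but array weights, where 1 gene, H2bc12, passed. The count of members lower at an unadjusted p under 0.05, 5 as deposited, ranged from 3 (without untreated replicate 1) to 12 (without mTORi-HDL replicate 2) when 1 array was left out, and was 3 after cyclic loess. The share of all genes lower moved too: 3.07% as deposited, and 2.20%, 4.46% and 3.10% in these settings. The replicate block gave 8 lower, against 3.71% of all genes, and 1 higher, against 1.62%. The labels do not say that the same replicate number marks a pair, so the numbers were not treated as pairs. Deviations of same-numbered arrays correlated at r = 0.14, 0.13 and -0.02, which cannot decide pairing with 3 arrays per group. The count of higher members, 2 as deposited, ranged from 0 to 2 when 1 array was left out: it was 1 without mTORi-HDL replicate 1, 2 without untreated replicate 2 and 0 without any of the others. It was 0 above the median brightness (68 of 71 members tested) and 1 after quantile normalization, cyclic loess, median centring, trended robust moderation and the 3 added settings. The members' median was -0.0759 after cyclic loess and -0.30 to -0.43 or, without mTORi-HDL replicate 1, -0.25 when 1 array was left out. The cause of these changes was not tested.

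The sign of single genes reversed in 41 of 676 cases, in 12 of 40 genes. Under quantile normalization over all arrays the log2 fold changes became 0.18 for Mrps18c, -0.0946 for Mrps30, 0.32 for Mrps18b, 0.0252 for Yy1 and 0.13 for Tufm. Under cyclic loess they became 0.22 for Mrps18c, 0.47 for Mrps18b, 0.0419 for Mrpl58, 0.26 for Yy1, 0.0620 for Tufm and 0.0153 for Nrf1. Median centring gave -0.0666 for Mrps30, -0.0305 for Mrpl19 and -0.0032 for Mrpl14, averaged probe sets 0.10 for Mrps18c, and array weights 0.15 for Mrps18b, 0.0277 for Nrf1 and -5.0e-05 for Mrpl48. In the added settings without mTORi-HDL 1, Mrps18b had 0.17 (brightness filter), 0.21 (cyclic loess) and 0.20 (quantile), Polrmt 0.0411, 0.0872 and 0.0520, and Nrf1 0.0797, 0.13 and 0.10. With 1 array left out, the ranges were -0.98 to 0.17 for Mrps18c, -0.42 to 0.48 for Mrps30, -0.23 to 0.46 for Mrpl19, -0.18 to 0.31 for Mrpl14, -0.31 to 0.17 for Mrps18b, -0.39 to 0.0880 for Mrps36, -0.65 to 0.0411 for Polrmt and -0.45 to 0.0797 for Nrf1.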
